A study of Mus musculus with 36 samples.

Results

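The change over the last 2 days of neurobasal differentiation was measured in *Tet1* knockout (KO) mouse embryonic stem cells (ESCs), by comparing KO cells on day 5 with the same KO lines on day 3. The 7 libraries of lines KO1 and KO15 from these days, 3 of day 5 and 4 of day 3, were chosen by their column names out of 36 RNA-seq libraries, and nothing measured in them entered the choice. KO1 and KO15 are male ESC lines taken from blastocysts of (B6×129S6)F1-Tet1tm1Koh embryos. WT7 and WT34 are the WT lines, labelled with the same B6129S6F1 background, and their 7 libraries of days 3 and 5 entered the test of whether the KO change differed from the WT change. ESCs kept in serum medium were depleted of feeder cells, plated on gelatin in N2B27 medium with bFGF from day 0 to day 3, and left without bFGF from day 3 to day 5. The day 5 libraries were KO1 and KO15 of experiment 1 and KO1 of experiment 2, and the day 3 libraries were KO1 and KO15 of both experiments. Experiment 2 holds the libraries that the labels name as a time course of the same lines. The labels do not say how far its cultures were independent of experiment 1, so n counts libraries and not lines, p-values measure the spread between these libraries, and the change of day cannot be told apart from the withdrawal of bFGF. Library values below are listed in the order KO1 then KO15 of experiment 1, and then KO1 then, on day 3, KO15 of experiment 2. They are counts per 1e6 counts of a library (CPM).

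Neurobasal medium without serum leads ESCs out of naive pluripotency, through a state like the epiblast of the embryo after implantation, towards neuroectoderm. The alternative routes of gastrulation start in the primitive streak, where Brachyury and *Eomes* mark cells that will form mesoderm and definitive endoderm under *Nodal*, Wnt, FGF and BMP signals. TET1 is a dioxygenase that oxidises methylated cytosine and is abundant in ESCs and epiblast cells. The embryonic heart arises from mesoderm that switches on GATA, T-box, HAND and ISL1 transcription factors before the genes of the contractile apparatus.

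The targeted gene was read first. *Tet1*, at chr10:62804570-62908996 on the minus strand in mm10, had 47.2, 55.9 and 83.1 CPM in KO cells on day 5, 57.6, 66.4, 62.3 and 72.1 CPM in KO cells on day 3, 108, 116 and 181 CPM in WT cells on day 5 and 239, 229, 254 and 249 CPM in WT cells on day 3. All 7 KO libraries lay below all 7 WT libraries. Library totals ran from 10.1 to 16.9 Mcounts (units of 1e6 counts) on day 5 and from 15.1 to 22.8 Mcounts on day 3, and mitochondrial genes took 1.40 to 2.32 percent. The day separated the 7 libraries on the 1st principal component of log2 CPM, which held 70.2 percent of the variance, and the 2nd, with 12.8 percent, set the experiment 2 library of day 5 at 64.9 against -36.2 and -32.5 for the other day 5 libraries. That library is the only KO library of experiment 2 on day 5, and its value is given wherever KO levels of day 5 are listed by library. Some genes are given by log2 fold change alone. RNA was read in bulk, in which fewer cells of a type and less RNA per cell cannot be told apart.

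Of 17208 genes tested, 2150 rose and 1917 fell in KO cells on day 5, which is 12.5 percent and 11.1 percent, together 23.6 percent. A gene passed at an adjusted p under 0.05 (edgeR quasi-likelihood test, Benjamini-Hochberg adjustment) when its log2 fold change also exceeded 1 in absolute value, and the words rose and fell are kept for such genes. The median log2 fold change over all tested genes was 0.01. In 53.6 percent of tested genes the day 5 and day 3 libraries did not overlap. Without the experiment 2 library of day 5, 2352 genes rose and 2024 fell, and 3549 of the 4067 genes that passed with it passed again in the same direction. The gene lists described below were drawn from textbook knowledge. Among lists with 7 or more tested members the paraxial mesoderm, cardiac transcription factor and contractile lists had the highest medians, and the germline, formative and naive pluripotency lists the lowest. Without the experiment 2 library the shares over all genes were 13.2 percent higher and 11.4 percent lower.

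**Figure D1:**
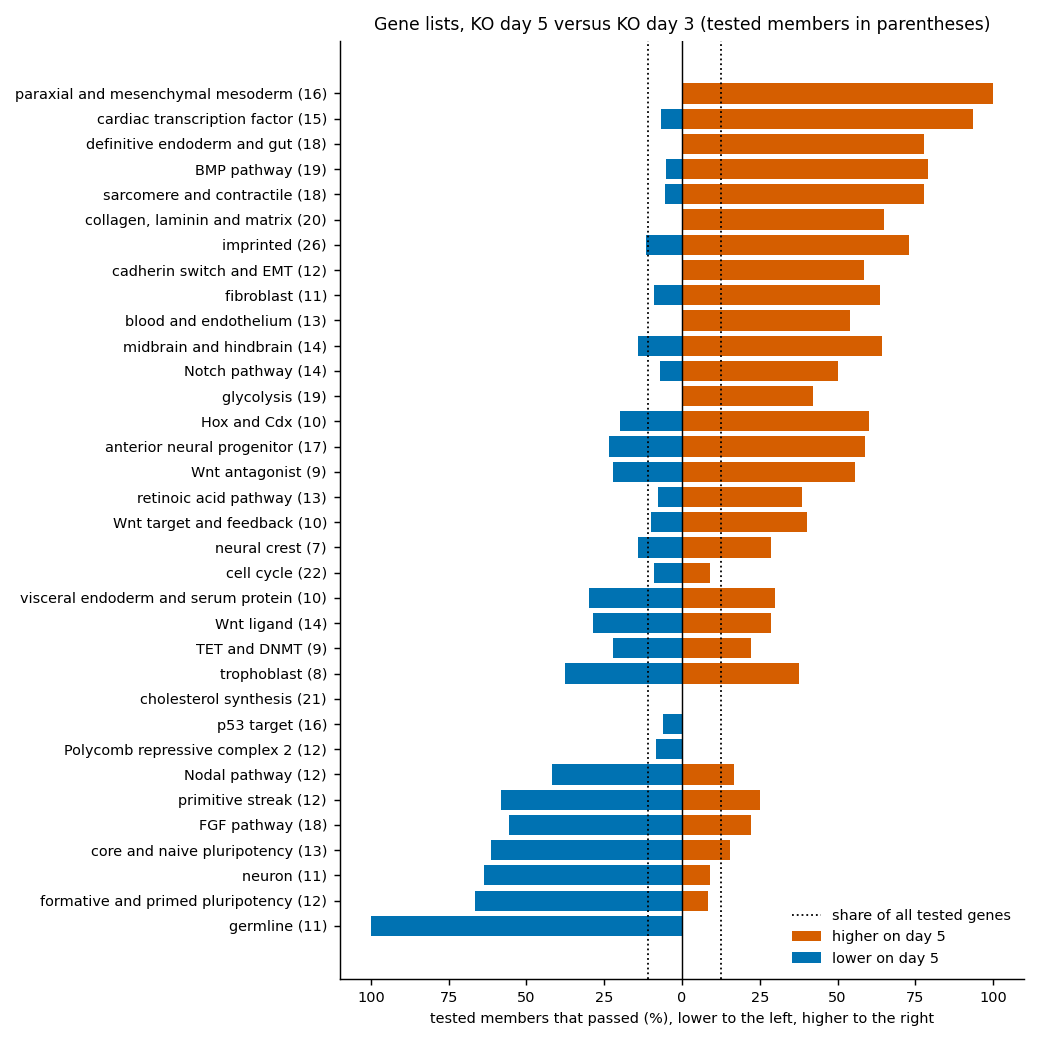
For each list with 7 or more tested members, the bars to the right give the percentage of members that rose and the bars to the left the percentage that fell in KO cells on day 5 against day 3, with dotted lines at the 12.5 and 11.1 percent of all genes. All 16 tested members of the paraxial and mesenchymal list rose and all 11 tested members of the germline list fell.

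Most pluripotency genes fell in KO cells between the days. In the list of core and naive pluripotency genes 8 of 13 tested members fell and 2 rose, with a median log2 fold change of -2.70. *Pou5f1*, which encodes the core factor OCT4, had 43.1, 45.4 and 20.4 CPM on day 5 and 874, 857, 812 and 762 CPM on day 3. *Nanog*, another core factor, had 10.3, 12.6 and 5.15 CPM on day 5 and 214, 204, 193 and 158 CPM on day 3. For both genes every day 5 library lay far below every day 3 library, and the experiment 2 library was the lowest. *Pou5f1* fell by 4.60 on the log2 scale (SE 0.20, adjusted p = 1.2e-06) and *Nanog* fell by 4.41 on the log2 scale (SE 0.19, adjusted p = 1e-06). *Tdh*, the threonine dehydrogenase of mouse ESCs, had 0.864, 0.889 and 1.12 CPM on day 5 and 37.4, 36.8, 33.7 and 36.4 CPM on day 3, and *Dppa4*, a chromatin-associated gene of pluripotent cells, had 0.665, 1.01 and 0.562 CPM on day 5 and 24.1, 29.9, 27.5 and 30.5 CPM on day 3. Neither gene overlapped between the days. *Tdh* fell by 5.23 and *Dppa4* by 5.13 on the log2 scale. *Esrrb*, an orphan nuclear receptor of naive cells, fell by 2.92 on the log2 scale (SE 0.19, adjusted p = 7.3e-06).

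*Sox2* and *Lin28a* did not move with the other members. *Sox2*, which neural progenitors also use, had 22.5, 27 and 48.6 CPM on day 5 and 46.6, 50.5, 23.5 and 37.2 CPM on day 3, and its log2 fold change was -0.25 (SE 0.32, adjusted p = 0.54). The days overlapped, with lower values on day 5 in experiment 1 and a higher value on day 5 in experiment 2. *Lin28a*, an RNA-binding protein gene that blocks let-7 processing, had 1039.8, 979.8 and 890.5 CPM on day 5 and 745, 767, 609 and 673 CPM on day 3, and its log2 fold change of 0.47 (SE 0.05, adjusted p = 0.00016) stayed within the limit of 1. The 2 members that rose were *Klf4* and *Tbx3*, transcription factor genes of naive cells that many other tissues use. *Klf4* had 30, 34.9 and 2.72 CPM on day 5 and 4.42, 4.24, 3.61 and 5.44 CPM on day 3, and *Tbx3* had 67, 57.6 and 5.99 CPM on day 5 and 5.87, 5.68, 7.39 and 9.46 CPM on day 3. Both were higher on day 5 in the 2 experiment 1 libraries alone, since the experiment 2 library lay within or below the day 3 range. *Klf4* rose by 1.85 on the log2 scale (SE 0.65, adjusted p = 0.041) and *Tbx3* rose by 2.20 on the log2 scale (SE 0.72, adjusted p = 0.03), and within experiment 2 the log2 values were -0.75 and -0.50. Both calls were lost without any single library of experiment 1, at 1.34 to 1.68 for *Klf4* and 1.59 to 2.04 for *Tbx3*, and that of *Klf4* also without KO1 of experiment 2 on day 3, at 1.87.

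Genes of formative and primed pluripotency fell as a group, with 8 of 12 lower, 1 higher and a median log2 fold change of -3.05. *Fgf5*, the ligand that marks the postimplantation epiblast, had 40.7, 36 and 17.2 CPM on day 5 and 249.8, 226, 197 and 190.4 CPM on day 3. *Dnmt3b*, the de novo methyltransferase of the epiblast, had 191, 188 and 172 CPM on day 5 and 1734, 1869.8, 1548 and 1615 CPM on day 3. In each of these genes all day 5 libraries were lower than all day 3 libraries. *Fgf5* fell by 2.89 on the log2 scale (SE 0.17, adjusted p = 5.2e-06) and *Dnmt3b* fell by 3.20 on the log2 scale (SE 0.05, adjusted p = 3.3e-08). *L1td1*, an RNA-binding protein gene derived from a LINE element, had 13.7, 14.3 and 11.8 CPM on day 5 and 509, 490.2, 399 and 405 CPM on day 3, and it fell by 5.11 on the log2 scale (SE 0.06, adjusted p = 9.5e-09). *Utf1*, a chromatin factor gene of ESCs, fell by 5.12 on the log2 scale (SE 0.16, adjusted p = 2.6e-07), and *Foxd3*, a forkhead gene of epiblast and neural crest, fell by 6.08 on the log2 scale (SE 0.24, adjusted p = 7e-07). *Otx2*, which primed cells share with the anterior neural plate, had 128, 119 and 276 CPM on day 5 and 119.5, 119, 84.2 and 82 CPM on day 3. Its day 5 library of experiment 2 stood well above the other 6, and the log2 fold change of 0.79 (SE 0.29, adjusted p = 0.049) did not pass.

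**Figure D2:**
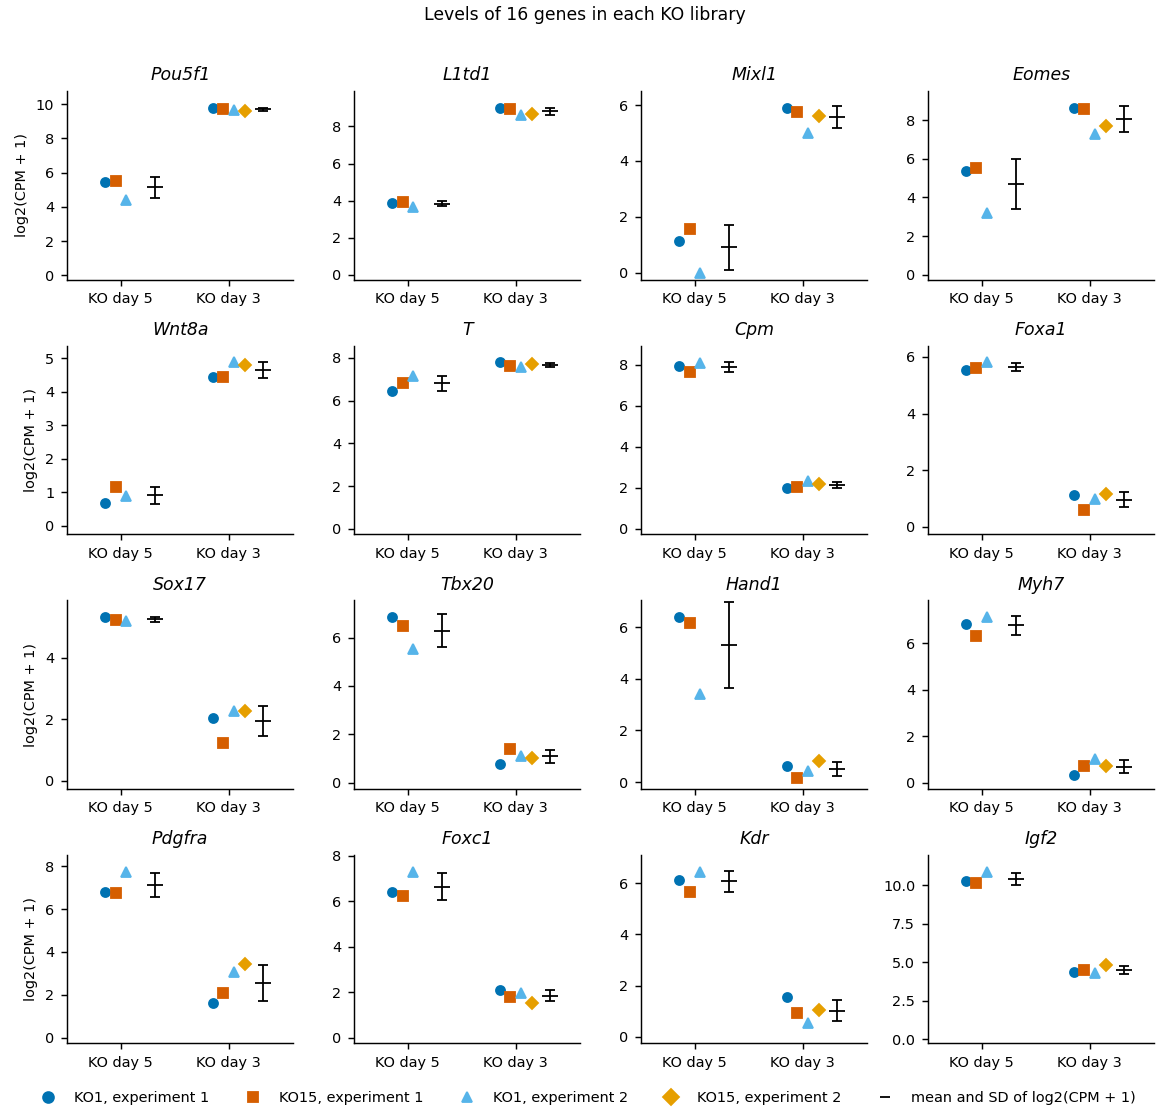
Levels of 16 genes as log2(CPM + 1) in each KO library, with day 5 left of day 3, a symbol for each line and experiment, and bars for the mean and SD (n = 3 on day 5 and 4 on day 3). *Pou5f1*, *L1td1*, *Mixl1*, *Eomes* and *Wnt8a* lie lower in every day 5 library, *Foxa1*, *Tbx20*, *Myh7*, *Kdr* and *Igf2* lie higher, and the experiment 2 library of day 5 sits apart in *Hand1*, at 9.55 CPM.

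Primitive streak genes were largely lower on day 5, although not all to the same extent. In that list 7 of 12 tested members fell, 3 rose and the median log2 fold change was -1.56. *Mixl1*, a homeobox gene of the streak, had 1.2, 1.95 and 0 CPM on day 5 and 58.9, 52.5, 31 and 48 CPM on day 3, and it fell by 5.49 on the log2 scale (SE 0.42, adjusted p = 1.7e-05). *Eomes*, a T-box gene of the early streak, had 40.3, 44.2 and 8.24 CPM on day 5 and 395, 377, 153 and 208 CPM on day 3. The experiment 2 library held the lowest value of both. *Eomes* fell by 3.52 on the log2 scale (SE 0.25, adjusted p = 1.2e-05). *Wnt8a*, a streak ligand, had 0.598, 1.24 and 0.843 CPM on day 5 and 20.7, 20.9, 28.5 and 27 CPM on day 3, with no overlap, and it fell by 4.60 on the log2 scale (SE 0.21, adjusted p = 1.4e-06). Brachyury, the gene *T*, had 87.1, 111 and 139.6 CPM on day 5 and 219.5, 196, 192 and 211 CPM on day 3. Every day 5 library was below every day 3 library, but the log2 fold change of -0.82 (SE 0.13, adjusted p = 0.0009) stayed within the limit. Without the experiment 2 library *T* passed at a log2 fold change of -1.04 (adjusted p = 4.2e-05).

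The members that rose are best known from cells that leave the streak. *Mesp1*, the first gene of cardiac mesoderm, had 4.19, 4.5 and 2.53 CPM on day 5 and 0.198, 0.131, 0.116 and 0.628 CPM on day 3, and it rose by 3.68 on the log2 scale (SE 0.57, adjusted p = 0.00081). Its highest values were those of day 4, 22.2 and 25.3 CPM in KO1 and KO15 of experiment 2. *Mesp2*, a somite segmentation gene, had 1.2, 2.13 and 1.78 CPM on day 5 and 0.198, 0.457, 0.757 and 1.09 CPM on day 3, and it rose by 1.70 on the log2 scale (SE 0.46, adjusted p = 0.014). *Lhx1*, a LIM homeobox gene of axial and intermediate mesoderm, had 71.6, 80.4 and 26.9 CPM on day 5 and 25.9, 16.1, 18.8 and 21.4 CPM on day 3, and it rose by 1.36 on the log2 scale (SE 0.30, adjusted p = 0.0053). All 3 genes were higher in every day 5 library, the experiment 2 library being the lowest for *Mesp1* and *Lhx1*. Within experiment 2 the log2 values were smaller for *Mesp2* and *Lhx1*, at 0.92 and 0.42. *Gsc*, a homeobox gene of the organizer, had 2.92, 2.67 and 12.6 CPM on day 5 and 13.7, 14.4, 11.8 and 13.6 CPM on day 3, so the experiment 2 library lay inside the day 3 range. *Gsc* fell by 1.24 on the log2 scale (SE 0.43, adjusted p = 0.037), a call that was lost on leaving out any of the 4 libraries of experiment 1, at -1.12 to -0.92, and in a fit with a replicate block for the line, at -1.31 (adjusted p = 0.053). The paraxial gene *Tbx6* had 1.66, 1.84 and 0.749 CPM on day 5 and 0.66, 0.849, 1.75 and 2.09 CPM on day 3, overlapped between the days and had a log2 fold change of 0.32 (SE 0.53, adjusted p = 0.64), which passed at a log2 fold change of 1.24 (adjusted p = 0.018) without the experiment 2 library.

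**Figure D3:**
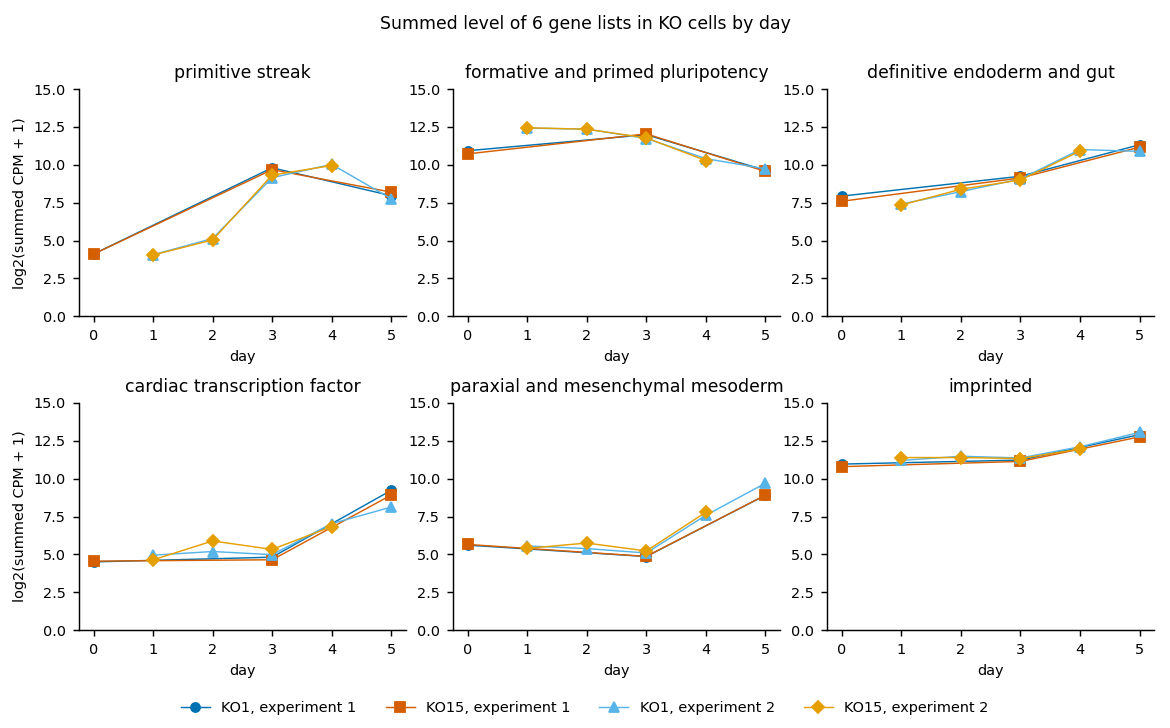
Summed CPM of 6 gene lists, as log2(sum + 1), in every KO library by day, with a symbol for each line and experiment. Days 1, 2 and 4 were read in experiment 2 only and day 0 in experiment 1 only. KO15 of experiment 2 has no day 5 library. In every series with both days the cardiac and paraxial sums are higher on day 5 than on day 3, and the primitive streak and formative sums are lower. The primitive streak sums of experiment 2 are highest on day 4, at 1045.5 and 991.7 CPM in KO1 and KO15.

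Endoderm genes went up between the days. In the list of definitive endoderm and gut genes 14 of 18 members rose and none of those tested fell, with a median log2 fold change of 2.50. *Sox17*, a SOX gene that defines early endoderm, had 39.4, 36.5 and 35.8 CPM on day 5 and 3.1, 1.37, 3.84 and 3.81 CPM on day 3. *Foxa1*, a pioneer factor gene of gut endoderm, had 45.5, 48 and 55 CPM on day 5 and 1.19, 0.522, 0.989 and 1.21 CPM on day 3. The 3 day 5 libraries were close to one another for both genes and far above every day 3 library. *Sox17* rose by 3.71 on the log2 scale (SE 0.25, adjusted p = 8.6e-06) and *Foxa1* rose by 5.71 on the log2 scale (SE 0.17, adjusted p = 2.5e-07). *Cxcr4*, a chemokine receptor of endoderm and mesoderm, had 28.5, 25.4 and 49.1 CPM on day 5 and 0.726, 0.849, 1.11 and 1.21 CPM on day 3, and it rose by 5.28 on the log2 scale (SE 0.13, adjusted p = 1.1e-07). *Spink1*, a secreted protease inhibitor gene of gut endoderm, had 21.9, 14.9 and 14.1 CPM on day 5 and 0.198, 0.326, 1.05 and 1.55 CPM on day 3, and it rose by 4.56 on the log2 scale (SE 0.48, adjusted p = 9.9e-05). On day 4 of experiment 2, in KO1 and KO15, *Sox17* had 64.5 and 71.9 CPM, *Cxcr4* 35.7 and 31.8 CPM and *Spink1* 4.36 and 5.73 CPM. The list summed to 2061.5 and 1916.5 CPM in these libraries and to 1893 CPM in KO1 of experiment 2 on day 5.

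*Cpm*, which encodes the membrane protein carboxypeptidase M, had 242, 197 and 274 CPM on day 5 and 3.03, 3.07, 3.96 and 3.52 CPM on day 3, and it rose by 6.21 on the log2 scale (SE 0.10, adjusted p = 3.3e-08). *Krt8* and *Krt18*, the paired keratins of simple epithelia, had 799, 753 and 464 CPM and 826, 693 and 474 CPM on day 5. On day 3 they had 169, 157, 153 and 154 CPM and 127, 123, 108 and 109 CPM. Day 5 was above day 3 in every library, with the experiment 2 library the lowest of day 5. They rose by 2.02 and 2.45 on the log2 scale, *Krt19* by 2.55, *Sox9* by 3.92, and *Hnf4a*, a nuclear receptor gene of liver and gut, by 4.03. *Foxa2*, which endoderm shares with node and floor plate, had 45.9, 47.4 and 73.7 CPM on day 5 and 57.8, 50.7, 50.9 and 50.1 CPM on day 3. It overlapped between the days, and its log2 fold change was 0.12 (SE 0.15, adjusted p = 0.51). On day 4 of experiment 2 *Foxa2* had 125 and 110 CPM in KO1 and KO15, above every KO library of days 3 and 5. Markers of visceral endoderm were read beside them. That list held 3 higher and 3 lower members of 10 tested, its defining genes *Afp* and *Alb* had at most 0.187 and 0.126 CPM in any of the 7 libraries, and *Ttr* had 0.931, 0.592 and 2.25 CPM on day 5 and 0.066, 0, 0.466 and 0.461 CPM on day 3. Among the members that rose, *Dab2*, an endocytic adaptor gene, rose by 2.00 on the log2 scale (SE 0.15, adjusted p = 1.8e-05) and *Cited1*, a transcriptional coregulator gene, rose by 1.97 on the log2 scale (SE 0.19, adjusted p = 5.5e-05). *Amn*, a receptor subunit of visceral endoderm, fell by 1.86 on the log2 scale (SE 0.35, adjusted p = 0.0022), and its partner *Cubn*, at 12.8, 10.5 and 53.1 CPM on day 5 and 7.19, 10.9, 38.8 and 54.5 CPM on day 3, differed more between the experiments than between the days.

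Cardiac transcription factor genes were among the steepest risers of the comparison. Of the 15 genes on that list 14 rose and 1 fell, with a median log2 fold change of 3.81. *Isl1*, a LIM homeobox gene of second heart field progenitors at chr13:116298281-116309689 on the minus strand, had 43.8, 35.9 and 51.1 CPM on day 5 and 0.33, 0.588, 0.582 and 0.796 CPM on day 3. *Tbx20*, a T-box gene of the early heart, had 115, 89.7 and 45.1 CPM on day 5 and 0.726, 1.63, 1.16 and 1.05 CPM on day 3. Neither overlapped, and the experiment 2 library had the highest *Isl1* and the lowest *Tbx20* of day 5. *Isl1* rose by 6.30 on the log2 scale (SE 0.17, adjusted p = 1.5e-07) and *Tbx20* rose by 5.97 on the log2 scale (SE 0.25, adjusted p = 1.1e-06). *Mef2c*, which activates muscle genes, had 49.3, 36.1 and 36.5 CPM on day 5 and 0.792, 0.457, 0.233 and 0.879 CPM on day 3, and it rose by 6.02 on the log2 scale (SE 0.28, adjusted p = 1.4e-06). *Myocd*, a coactivator of serum response factor, had 23.9, 18.1 and 20 CPM on day 5 and 1.65, 1.31, 1.16 and 1.63 CPM on day 3, and it rose by 3.84 on the log2 scale (SE 0.18, adjusted p = 1.6e-06).

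*Gata4*, *Gata6* and *Hand1* had higher log2 values in experiment 1 than in experiment 2. *Gata4* had 99.6, 75.6 and 37.6 CPM on day 5 and 5.01, 4.96, 11.3 and 14.7 CPM on day 3, and *Gata6* had 80.2, 79.7 and 24.8 CPM on day 5 and 4.95, 3.66, 5.65 and 9.25 CPM on day 3. *Hand1* had 83, 69.7 and 9.55 CPM on day 5 and 0.528, 0.131, 0.349 and 0.754 CPM on day 3. Every day 5 library exceeded every day 3 library, but the experiment 2 library was well below those of experiment 1. *Gata4* rose by 3.09 on the log2 scale (SE 0.50, adjusted p = 0.001), *Gata6* rose by 3.24 on the log2 scale (SE 0.49, adjusted p = 0.0007) and *Hand1* rose by 6.20 on the log2 scale (SE 0.59, adjusted p = 5.5e-05). Within experiment 1 their log2 values were 4.15, 4.23 and 7.84, against 1.52, 1.71 and 4.04 within experiment 2. *Gata5* had 15.3, 10.4 and 8.33 CPM on day 5 and 0.198, 0.196, 0.0582 and 0 CPM on day 3 and rose by 6.61 on the log2 scale (SE 0.43, adjusted p = 7.7e-06), with 5.98 within experiment 1 and 8.03 within experiment 2. *Hand2*, a basic helix-loop-helix factor gene of the heart field at chr8:57320983-57324633 on the plus strand, had 28.2, 20.9 and 17.8 CPM on day 5 and 0, 0, 0.116 and 0 CPM on day 3, where its 2 counts gave a ratio of day 5 to day 3 of 811 (95 percent counting interval 224 to 6706, which covers counting error only). *Nkx2-5*, the homeobox gene of committed heart cells, stayed low at 7.64, 4.62 and 3.75 CPM on day 5 against 0.396, 0.131, 0.466 and 0.837 CPM on day 3, and it rose by 3.55 on the log2 scale (SE 0.52, adjusted p = 0.00061). *Hopx*, a small homeodomain gene also used outside the heart, was the member that fell, at 3.06, 2.49 and 3.93 CPM on day 5 and 10.3, 8.23, 7.28 and 6.91 CPM on day 3.

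Of 18 tested genes of the contractile apparatus 14 rose and 1 fell, with a median log2 fold change of 3.59. The windows before the starts of 3 of them, *Actc1*, *Myl7* and *Tnnt2*, are printed as examples. Each window was picked because it holds the marked match, so the presence of the match is no result. Each is the 250 bases before a start in RefSeq GRCm38.p6, read in the direction of the gene, at chr2:114052876-114053125 on the minus strand for *Actc1*, chr11:5898783-5899032 on the minus strand for *Myl7*, and chr1:135836084-135836333 on the plus strand for *Tnnt2*. *Tnnt2* has 2 windows, and the printed window is the only one of them with the match. Capitals mark the match to a CArG box, the element bound by serum response factor, in *Actc1* and *Myl7*, and the match to AGATAA read on the opposite strand, a GATA element, in *Tnnt2*.
*Actc1*: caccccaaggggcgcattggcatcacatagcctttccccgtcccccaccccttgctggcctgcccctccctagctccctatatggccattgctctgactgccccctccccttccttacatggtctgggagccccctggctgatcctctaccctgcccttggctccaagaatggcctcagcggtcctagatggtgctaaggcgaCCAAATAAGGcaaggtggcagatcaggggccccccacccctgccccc
*Myl7*: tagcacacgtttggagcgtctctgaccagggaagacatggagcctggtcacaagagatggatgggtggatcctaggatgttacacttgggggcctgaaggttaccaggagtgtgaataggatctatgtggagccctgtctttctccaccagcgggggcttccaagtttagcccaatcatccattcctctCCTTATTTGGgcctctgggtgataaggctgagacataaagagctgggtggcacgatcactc
*Tnnt2*: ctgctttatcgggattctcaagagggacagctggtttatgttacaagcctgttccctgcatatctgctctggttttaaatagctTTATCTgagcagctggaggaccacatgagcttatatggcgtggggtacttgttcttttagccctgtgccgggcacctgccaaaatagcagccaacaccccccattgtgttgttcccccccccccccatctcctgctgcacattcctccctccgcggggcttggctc
The CArG box begins 47 bases before the start in *Actc1* and 61 in *Myl7*, and the GATA match begins 166 bases before the start in *Tnnt2*. A CArG box was found in 482 of 32851 RefSeq windows of this length (1.47 percent) and in 3 of the 26 windows of the contractile list (11.5 percent), those of *Actc1*, *Myl3* and *Myl7*. AGATAA on either strand was found in 3281 windows (9.99 percent) and in 3 of the 26 (11.5 percent), those of *Myl2*, *Pln* and *Tnnt2*. The GATA share of the list was thus near that of all windows. A match of letters is a description of the window and was not tested for binding.

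The genes behind these windows rose together. *Actc1*, cardiac actin, had 50.9, 43.1 and 14.1 CPM on day 5 and 2.51, 2.02, 2.79 and 1.51 CPM on day 3, and *Myl7*, the atrial myosin light chain, had 40.1, 23.8 and 15.5 CPM on day 5 and 0.264, 0.588, 0.64 and 0.544 CPM on day 3. *Tnnt2*, a cardiac troponin, had 32.3, 18.5 and 17.1 CPM on day 5 and 0.396, 0.196, 0.524 and 1.13 CPM on day 3. No day 5 library reached down to day 3, and KO1 of experiment 1 was the highest for each. *Actc1* rose by 3.76 on the log2 scale (SE 0.34, adjusted p = 4.4e-05), *Myl7* rose by 5.49 on the log2 scale (SE 0.36, adjusted p = 7.8e-06) and *Tnnt2* rose by 5.22 on the log2 scale (SE 0.45, adjusted p = 3.2e-05). *Myh7*, the slow cardiac myosin heavy chain, had 114, 79.4 and 139 CPM on day 5 and 0.264, 0.653, 1.05 and 0.628 CPM on day 3, and 9.4 and 10.9 CPM on day 4 of experiment 2. Among the contractile genes named it rose by 7.55 on the log2 scale, next to *Myl4* at 7.14, *Acta2*, smooth muscle actin, at 5.13, *Myh6* at 3.15 and *Ttn*, titin, at 2.51. *Ttn* had 95.2, 45.7 and 40.8 CPM on day 5 and 10.8, 11.4, 8.26 and 9.46 CPM on day 3. In KO1 and KO15 it also had 76.2 and 50.2 CPM on day 0 and 165 and 164 CPM on day 1. Markers of matured chamber muscle stayed near the floor. *Myl2*, the ventricular light chain, had 0.332, 0.296 and 0.281 CPM on day 5 and 0.066, 0, 0.116 and 0.0837 CPM on day 3, *Nppa*, the atrial peptide, had 0.0665, 0.0592 and 0.0936 CPM on day 5 and 0.066, 0, 0 and 0 CPM on day 3, and neither reached the count filter.

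Mesenchymal and paraxial mesoderm genes rose without exception among those tested, 16 of 16, with a median log2 fold change of 4.46. Without the experiment 2 library 15 of 16 passed. *Pdgfra*, a growth factor receptor of early mesoderm, had 109, 108 and 213 CPM on day 5 and 2.11, 3.26, 7.39 and 9.71 CPM on day 3. *Foxc1*, a forkhead gene of paraxial and cardiac mesoderm, had 84.6, 73.9 and 158 CPM on day 5 and 3.3, 2.42, 2.85 and 1.88 CPM on day 3. The experiment 2 library was the highest of day 5 for both, and no library overlapped. *Pdgfra* rose by 4.98 on the log2 scale (SE 0.18, adjusted p = 5.4e-07) and *Foxc1* rose by 5.43 on the log2 scale (SE 0.26, adjusted p = 1.7e-06). *Foxc2*, its partner at chr8:121116171-121118895 on the plus strand, had 19, 31.3 and 51.2 CPM on day 5 and 0.066, 0, 0 and 0.0419 CPM on day 3, and its ratio of day 5 to day 3, with 2 counts on day 3, was 1144 (95 percent counting interval 316 to 9452, which covers counting error only). *Twist1*, which drives mesenchymal transition, had 73.2, 71.4 and 88.2 CPM on day 5 and 10.8, 9.34, 12.2 and 11.1 CPM on day 3, and it rose by 2.91 on the log2 scale (SE 0.08, adjusted p = 1.7e-07). *Prrx2* and *Eya1*, homeobox and phosphatase cofactor genes of mesenchyme, rose by 4.97 and 4.36 on the log2 scale. *Meox1*, a somite homeobox gene, had 1.33, 6.81 and 9.18 CPM on day 5 and 0, 0.131, 0.0582 and 0.167 CPM on day 3, with KO1 of experiment 1 far under the other day 5 libraries, and it rose by 6.06 on the log2 scale (SE 0.76, adjusted p = 0.00025).

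The cadherin and matrix genes changed with them. Of 12 genes of the cadherin switch and epithelial-to-mesenchymal transition 7 rose and none fell, and of 20 collagen, laminin and matrix genes 13 rose and none fell, with medians of 2.08 and 1.55. *Cdh2*, N-cadherin, had 149.8, 181 and 164 CPM on day 5 and 19.13, 22.5, 23.2 and 27.3 CPM on day 3, and it rose by 2.90 on the log2 scale (SE 0.11, adjusted p = 6.9e-07). *Cdh1*, E-cadherin, had 520.0, 490.5 and 435 CPM on day 5 and 920.5, 921, 786 and 794 CPM on day 3. Its libraries did not overlap, but the log2 fold change of -0.84 (SE 0.05, adjusted p = 3.6e-06) did not reach the limit. *Zeb1*, a repressor of epithelial genes, had 40.1, 45.8 and 45.3 CPM on day 5 and 2.11, 2.42, 2.68 and 3.98 CPM on day 3 and rose by 4.03 on the log2 scale (SE 0.17, adjusted p = 9.2e-07), and *Snai2* rose by 4.88 on the log2 scale (SE 0.30, adjusted p = 6e-06). *Fn1*, fibronectin, had 1282, 1472 and 1499.5 CPM on day 5 and 255, 237, 228 and 214 CPM on day 3 and rose by 2.62 on the log2 scale (SE 0.08, adjusted p = 2.5e-07). *Fbn2*, a fibrillin of embryonic tissue, had 364, 364 and 515 CPM on day 5 and 19.7, 17.2, 14.3 and 15.7 CPM on day 3 and rose by 4.67 on the log2 scale (SE 0.16, adjusted p = 4.7e-07). Feeder fibroblasts carry some of the same genes. Of 14 fibroblast genes 11 were tested, 7 rose and 1 fell, and their summed level was 124 to 194 CPM on day 5 and 64 to 73 CPM on day 3. Among the defining members *Col1a1* had 20.1, 24.8 and 28.2 CPM on day 5 and 3.36, 2.42, 3.55 and 4.69 CPM on day 3, *Dcn* had 0.598, 0.118 and 1.12 CPM on day 5 and 0.66, 1.11, 0.757 and 0.837 CPM on day 3, and *Thy1* had 1.33, 2.25 and 1.22 CPM on day 5 and 22.8, 19.8, 23.5 and 22 CPM on day 3. *Thy1* fell by 3.71 on the log2 scale (SE 0.21, adjusted p = 3.7e-06), *Col1a1* rose by 2.89 on the log2 scale (SE 0.16, adjusted p = 4.1e-06), *Dcn* did not pass, and the share of fibroblasts in these values was not tested.

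Blood and endothelial genes were partly present. Of 23 genes on the list 13 reached the count filter, 7 rose and none fell. *Kdr*, the VEGF receptor of lateral mesoderm, had 68.1, 48.9 and 86.4 CPM on day 5 and 1.91, 0.914, 0.466 and 1.09 CPM on day 3, and it rose by 6.02 on the log2 scale (SE 0.32, adjusted p = 3.2e-06). *Gata1* and *Gata2*, blood progenitor factors, had 7.91, 9.54 and 2.72 CPM and 17.9, 20.3 and 4.78 CPM on day 5. On day 3 they had 0.396, 0.196, 0.233 and 0.419 CPM and 1.12, 0.849, 1.34 and 0.67 CPM. The experiment 2 library was lowest of day 5 for both, and they rose by 4.09 and 3.53 on the log2 scale. *Tal1*, a factor of the first blood cells, had 3.66, 2.49 and 4.12 CPM on day 5 and 0.33, 0.0653, 0 and 0.419 CPM on day 3, and it rose by 4.03 on the log2 scale (SE 0.65, adjusted p = 0.00099). *Cdh5*, VE-cadherin, reached 0.731, 0.889 and 1.31 CPM on day 5 against 0.132, 0.0653, 0.233 and 0.377 CPM on day 3, and *Pecam1*, which ESCs also express, overlapped between the days at 3.46, 2.31 and 0.936 CPM on day 5 and 3.1, 3.66, 4.13 and 4.02 CPM on day 3. *Hbb-bh1*, the embryonic globin, had 0 counts in all 7 libraries.

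Signalling genes moved in both directions. In the list of the *Nodal* pathway 5 of 12 members fell and 2 rose, with a median log2 fold change of -1.91. *Nodal*, the ligand, had 7.05, 7.11 and 1.78 CPM on day 5 and 154, 122, 90 and 81.4 CPM on day 3, and its coreceptor *Tdgf1* (Cripto) had 18.3, 19.07 and 6.27 CPM on day 5 and 569, 496, 429 and 324 CPM on day 3. *Lefty1*, the feedback inhibitor, had 0.465, 0.711 and 0.281 CPM on day 5 and 61.6, 49.6, 16.1 and 12 CPM on day 3. The 3 genes did not overlap between the days and the experiment 2 library was the lowest. *Nodal* fell by 4.52 on the log2 scale (SE 0.22, adjusted p = 1.8e-06), *Tdgf1* fell by 5.11 on the log2 scale (SE 0.23, adjusted p = 1.3e-06) and *Lefty1* fell by 6.38 on the log2 scale (SE 0.24, adjusted p = 6.7e-07). The members that rose were *Cfc1* (Cryptic), the coreceptor of later mesoderm, at 39.4, 34 and 12 CPM on day 5 and 1.19, 0.392, 0.524 and 0.461 CPM on day 3, and *Cer1* (Cerberus), an inhibitor secreted by anterior endoderm, at 90.3, 82.2 and 127 CPM on day 5 and 4.02, 1.83, 4.95 and 3.35 CPM on day 3. *Cer1* had 119.5 and 131 CPM on day 4 of experiment 2, so its day 5 level was reached by then.

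BMP genes were higher, with 15 of 19 members that rose, 1 that fell and a median log2 fold change of 2.86. Among ligands *Bmp5* had 69.5, 64.7 and 49.7 CPM on day 5 and 0.264, 1.31, 1.11 and 0.712 CPM on day 3 and rose by 6.13 on the log2 scale (SE 0.27, adjusted p = 1.3e-06). *Bmp2* had 80.4, 75.3 and 38.9 CPM on day 5 and 5.8, 4.31, 5.7 and 4.15 CPM on day 3 and rose by 3.58 on the log2 scale (SE 0.22, adjusted p = 5.5e-06), and *Bmp4* had 29.3, 24.7 and 16.4 CPM on day 5 and 2.18, 2.15, 1.92 and 2.72 CPM on day 3 and rose by 3.31 on the log2 scale (SE 0.21, adjusted p = 7.4e-06). The targets moved the same way. *Id1*, an inhibitor of helix-loop-helix factors and a direct BMP target, had 121, 99.6 and 72.4 CPM on day 5 and 3.69, 4.11, 2.21 and 2.39 CPM on day 3, and it rose by 4.91 on the log2 scale (SE 0.11, adjusted p = 9.4e-08). *Id2* and *Id3* rose by 3.59 and 2.86 on the log2 scale. Among the antagonists *Nog* (noggin) had 16.8, 20.1 and 17.5 CPM on day 5 and 0.396, 1.04, 1.05 and 1.47 CPM on day 3, and *Fst* (follistatin), which also binds activin, had 13.4, 22.7 and 20.8 CPM on day 5 and 196, 185, 193 and 194 CPM on day 3. *Nog* rose by 4.24 on the log2 scale (SE 0.29, adjusted p = 9.7e-06) and *Fst* fell by 3.30 on the log2 scale (SE 0.16, adjusted p = 1.9e-06), so the antagonists moved in opposite directions.

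Wnt ligands split evenly, 4 higher and 4 lower of 14 tested. *Wnt3*, the ligand that starts the streak, had 11.6, 13.4 and 1.87 CPM on day 5 and 49.2, 42.4, 41 and 34.6 CPM on day 3, and it fell by 2.42 on the log2 scale (SE 0.38, adjusted p = 0.00088). *Wnt5a*, a noncanonical ligand, had 26.3, 27.6 and 37.2 CPM on day 5 and 3.63, 2.74, 2.5 and 4.86 CPM on day 3, and it rose by 3.21 on the log2 scale (SE 0.21, adjusted p = 7.4e-06). Both were free of overlap, and they show the list's opposite movements. Wnt target and feedback genes rose in 4 and fell in 1 of 10 tested, with a median log2 fold change of -0.25. *Axin2*, the feedback gene most used as a readout of canonical Wnt signalling, had 60.7, 70.7 and 22.4 CPM on day 5 and 109, 97.9, 68.6 and 71 CPM on day 3, with a log2 fold change of -0.97 (SE 0.19, adjusted p = 0.0029) just inside the limit. Its days overlapped, and its log2 values were -0.64 within experiment 1 and -1.64 within experiment 2. *Lgr5*, an R-spondin receptor, had 37.7, 34.2 and 53.5 CPM on day 5 and 6.4, 3.26, 5.65 and 5.32 CPM on day 3, and it rose by 3.10 on the log2 scale (SE 0.19, adjusted p = 6.5e-06). Of 9 tested Wnt antagonists 5 rose and 2 fell. *Sfrp1* had 224, 257 and 240.2 CPM on day 5 and 14.9, 16.8, 12 and 18.5 CPM on day 3 and rose by 3.97 on the log2 scale (SE 0.14, adjusted p = 5.1e-07), and *Dkk1* had 70.1, 59.4 and 45.1 CPM on day 5 and 2.77, 3.13, 1.57 and 2.22 CPM on day 3 and rose by 4.52 on the log2 scale (SE 0.13, adjusted p = 2.1e-07). *Frzb* rose by 4.11 on the log2 scale (SE 0.12, adjusted p = 2.5e-07).

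FGF genes fell in 10 of 18 tested members and rose in 4, with a median log2 fold change of -1.19. *Etv4*, a transcription factor switched on by FGF signalling, had 5.32, 8.71 and 4.59 CPM on day 5 and 58.4, 61.4, 50.9 and 55.9 CPM on day 3, and it fell by 3.20 on the log2 scale (SE 0.18, adjusted p = 3.6e-06). *Fgf8* had 15, 17.8 and 18.8 CPM on day 5 and 66.2, 66.5, 71.8 and 53 CPM on day 3, and it fell by 1.88 on the log2 scale (SE 0.13, adjusted p = 1.2e-05). The feedback genes *Spry4* and *Dusp6* fell by 1.44 and 1.35 on the log2 scale, and *Dusp6* was at -0.88 without the experiment 2 library. *Fgf10*, a ligand of mesenchyme, went the other way at 16.4, 19.13 and 21 CPM on day 5 and 0.528, 0.457, 0.931 and 1.17 CPM on day 3. In the Notch list 7 of 14 tested members rose and 1 fell. *Jag1*, a ligand, had 80.4, 78.2 and 50.8 CPM on day 5 and 17.5, 14.8, 19.2 and 18.6 CPM on day 3, and *Hey1*, a target, had 16, 19.6 and 17.7 CPM on day 5 and 3.03, 2.87, 3.08 and 4.1 CPM on day 3. They rose by 1.98 and 2.49 on the log2 scale. In the retinoic acid list 5 of 13 rose and 1 fell. *Rarb*, a receptor and target gene, had 12.9, 12.3 and 24.5 CPM on day 5 and 0.264, 0.0653, 0.116 and 0.126 CPM on day 3 and rose by 6.98 on the log2 scale (SE 0.31, adjusted p = 1.3e-06), and *Cyp26a1*, which degrades retinoic acid, had 50.3, 45.8 and 107 CPM on day 5 and 4.49, 2.48, 4.07 and 3.6 CPM on day 3 and rose by 4.30 on the log2 scale (SE 0.24, adjusted p = 3.5e-06).

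Few Hox genes were expressed at levels that could be tested. Of 42 Hox and Cdx genes 10 reached the count filter, 6 rose and 2 fell, and the genes named are of the 3' end of the clusters. *Hoxb2* had 14.4, 16.1 and 4.12 CPM on day 5 and 0 counts in the 4 libraries of day 3, and its 532 counts are at least 298-fold higher than 3 counts over the day 3 group. *Hoxb1* had 4.72, 6.63 and 1.69 CPM on day 5 and 0.132, 0.196, 0 and 0.0419 CPM on day 3. The experiment 2 library was the lowest of day 5 for both genes. *Hoxb1* rose by 5.25 on the log2 scale (SE 0.42, adjusted p = 2.3e-05).

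Neural progenitor genes moved in both directions. Among anterior neural progenitor genes 10 of 17 tested rose and 4 fell, with a median log2 fold change of 1.20. *Six3*, a forebrain and eye field gene, had 11.2, 10.5 and 48.5 CPM on day 5 and 1.06, 1.44, 1.34 and 1.63 CPM on day 3. *Sox21*, a SOXB2 gene of progenitors, had 24.2, 31.7 and 35.8 CPM on day 5 and 2.57, 2.81, 2.68 and 2.93 CPM on day 3. Both rose without overlap, *Six3* most in experiment 2. *Six3* rose by 4.14 on the log2 scale (SE 0.35, adjusted p = 3.1e-05) and *Sox21* rose by 3.53 on the log2 scale (SE 0.14, adjusted p = 7.3e-07). The defining pair stayed low. *Sox1*, the earliest neuroectoderm marker, had 2.73, 5.75 and 4.96 CPM on day 5 and 0.66, 1.11, 1.16 and 2.18 CPM on day 3 and rose by 1.97 on the log2 scale (SE 0.39, adjusted p = 0.0031). *Pax6* had 1.93, 1.24 and 1.69 CPM on day 5 and 0.66, 0.914, 0.466 and 0.754 CPM on day 3 and rose by 1.20 on the log2 scale (SE 0.34, adjusted p = 0.017). That call was lost without the experiment 2 library, at a log2 fold change of 1.03 (adjusted p = 0.085), and without KO1 of experiment 1 on day 5 or on day 3, at 1.07 and 1.12. *Sox3* and *Nes*, which epiblast cells share with neural progenitors, fell by 1.71 and 2.37 on the log2 scale. Of 14 midbrain and hindbrain genes tested 9 rose and 2 fell, and the 3 Iroquois genes *Irx1*, *Irx3* and *Irx5* rose by 4.71, 4.27 and 4.70. *Pax3*, a gene of dorsal neural tube and of somites, had 10.2, 10.8 and 16.9 CPM on day 5 and 0.198, 0.457, 0.349 and 0.377 CPM on day 3. *En2*, a midbrain gene, fell by 3.31 on the log2 scale (SE 0.60, adjusted p = 0.0018).

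Neuronal and germline genes fell. Of 11 tested neuron genes 7 fell and 1 rose, with a median log2 fold change of -2.14. *Tubb3*, neuronal tubulin, had 2.33, 5.75 and 6.37 CPM on day 5 and 20.6, 26.4, 16.2 and 21.9 CPM on day 3. *Dcx*, doublecortin, had 0.332, 0.415 and 0.375 CPM on day 5 and 5.01, 8.49, 9.43 and 12.8 CPM on day 3. Both were low on day 5 in every library. *Tubb3* fell by 2.14 on the log2 scale (SE 0.32, adjusted p = 0.00065), *Dcx* fell by 4.35 on the log2 scale (SE 0.34, adjusted p = 2e-05), and *Ina*, an intermediate filament gene of neurons, fell by 4.66 on the log2 scale (SE 0.24, adjusted p = 2.5e-06). All 11 tested germline genes fell, with a median log2 fold change of -3.20, and -3.26 with the 4 of them at 3 counts or fewer on 1 day set to their bound. *Sycp3*, of the meiotic chromosome axis, had 0.0665, 0.415 and 0.562 CPM on day 5 and 4.88, 5.88, 8.73 and 11.1 CPM on day 3, and *Tdrd12*, of the piRNA pathway, had 1.13, 0.77 and 0.936 CPM on day 5 and 7.12, 8.36, 5.59 and 6.99 CPM on day 3. *Sycp3* fell by 4.25 on the log2 scale (SE 0.38, adjusted p = 4e-05) and *Tdrd12* fell by 2.90 on the log2 scale (SE 0.24, adjusted p = 2.6e-05). Trophoblast genes rose in 3 and fell in 3 of 8 tested, with *Prl3d1*, a giant cell hormone, at 0 counts in all 7 libraries and *Elf5* at 1.79, 0.889 and 0.562 CPM on day 5 and 1.32, 1.76, 0.757 and 1 CPM on day 3.

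Imprinted genes rose in 19 of 26 tested and fell in 3, with a median log2 fold change of 2.21. *Igf2*, the paternally expressed growth factor at chr7:142650766-142666816 on the minus strand, had 1252, 1110.5 and 1868 CPM on day 5 and 19.8, 21.3, 18.4 and 27.7 CPM on day 3. *H19*, its maternally expressed noncoding neighbour at chr7:142575529-142578143 on the minus strand, had 338, 270.3 and 587 CPM on day 5 and 3.83, 5.42, 6.75 and 10.1 CPM on day 3. Both were highest in the experiment 2 library, and no library overlapped. *Igf2* rose by 6.08 on the log2 scale (SE 0.17, adjusted p = 1.7e-07) and *H19* rose by 6.10 on the log2 scale (SE 0.16, adjusted p = 1.5e-07). On day 4 of experiment 2 *Igf2* had 166 and 146 CPM and *H19* had 69.2 and 60.9 CPM. *Peg3*, a zinc finger gene, had 1749, 1963 and 1917 CPM on day 5 and 263, 306, 321 and 384 CPM on day 3 and rose by 2.63 on the log2 scale (SE 0.10, adjusted p = 6.3e-07), and *Cdkn1c*, a cyclin-dependent kinase inhibitor, had 130.1, 119.7 and 115 CPM on day 5 and 16.4, 18.9, 20.3 and 22.3 CPM on day 3 and rose by 2.69 on the log2 scale (SE 0.11, adjusted p = 7.6e-07). *Grb10*, an adaptor that restrains growth, had 1346, 525 and 1456 CPM on day 5 and 338, 174, 341 and 193 CPM on day 3. KO15 was below KO1 in both experiments on day 3 and in experiment 1 on day 5, and *Grb10* rose by 2.13 on the log2 scale (SE 0.37, adjusted p = 0.0015). The noncoding *Rian* and *Mirg*, maternally expressed on chromosome 12, fell by 1.15 and 1.39 on the log2 scale, and *Meg3* of the same cluster had -0.86 (SE 0.11, adjusted p = 0.00027), inside the limit.

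Among DNA methylation genes 2 of 9 rose and 2 fell. *Tet2*, a relative of TET1, had 32.7, 42.1 and 65.5 CPM on day 5 and 9.56, 9.92, 13.7 and 11.6 CPM on day 3, and *Tet3* had 158, 149 and 166 CPM on day 5 and 68.5, 79.5, 57.5 and 72.3 CPM on day 3. Neither overlapped between the days. *Tet2* rose by 2.16 on the log2 scale (SE 0.13, adjusted p = 6e-06) and *Tet3* rose by 1.20 on the log2 scale (SE 0.10, adjusted p = 3.3e-05). The residual *Tet1* signal did not pass, with a log2 fold change of 0.00 (SE 0.13, adjusted p = 0.98). *Dnmt3l*, the cofactor of the de novo methyltransferases, had 1.86, 2.67 and 1.97 CPM on day 5 and 21.1, 20, 19.3 and 18 CPM on day 3, and it fell by 3.16 on the log2 scale (SE 0.15, adjusted p = 1.6e-06). *Dnmt3a*, at -0.68 (SE 0.07, adjusted p = 9.1e-05), did not pass.

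None of 21 cholesterol synthesis genes and 1 of 12 Polycomb repressive complex 2 genes passed, and 2 of 22 cell cycle genes rose and 2 fell, against 12.5 and 11.1 percent of all genes. The cell cycle share was near that of all genes. *Ezh2*, the catalytic subunit of that complex, had 156, 164 and 190.0 CPM on day 5 and 149, 164, 143 and 127 CPM on day 3, with overlap and a log2 fold change of 0.24 (SE 0.10, adjusted p = 0.066). *Mki67*, a proliferation marker, had 722, 751 and 873 CPM on day 5 and 391, 384, 570.5 and 507 CPM on day 3, at 0.86 (SE 0.07, adjusted p = 2.1e-05). D-type cyclins moved in opposite directions. *Ccnd1* had 53.6, 69.8 and 45.7 CPM on day 5 and 241, 247, 194 and 201 CPM on day 3, and *Ccnd2* had 414, 360.5 and 328 CPM on day 5 and 86.6, 95.5, 90.8 and 88.1 CPM on day 3. *Ccnd1* fell by 2.00 on the log2 scale (SE 0.09, adjusted p = 1.6e-06) and *Ccnd2* rose by 2.03 on the log2 scale (SE 0.08, adjusted p = 6.7e-07). Glycolysis genes rose in 8 of 19 and fell in none, with a median of 0.85. *Slc2a1*, the main glucose transporter, had 1491, 1458 and 1544 CPM on day 5 and 362, 415, 320.3 and 364 CPM on day 3, *Slc2a3* had 3239.7, 3185 and 2338 CPM on day 5 and 710.3, 613, 527 and 362 CPM on day 3, and they rose by 2.05 and 2.35 on the log2 scale. Of 16 p53 targets 1 fell, *Pmaip1*, and the median was -0.67. Within experiment 2 alone 11 of the 16 fell, where 11.9 percent of all genes did, and their summed level was 833 CPM in its day 5 library, 1454 and 1531 CPM in those of experiment 1 and 1894 to 2117 CPM on day 3.

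The 10 highest log2 fold changes among genes averaging 5 CPM or more on the higher day were *Hoxb2*, *Foxc2*, *Shh*, *Hand2*, *Ptgds*, *Foxd4*, *Kcnk16*, *Capn6*, *Myh7* and *Arg1*. *Shh*, the hedgehog ligand of node, floor plate and gut endoderm at chr5:28456815-28467256 on the minus strand, had 32.7, 46 and 90.5 CPM on day 5 and 0.132, 0.0653, 0.0582 and 0 CPM on day 3, and it rose by 10.06 on the log2 scale (SE 0.35, adjusted p = 5.1e-07). *Capn6*, an X-linked calpain gene, had 325, 268 and 259.8 CPM on day 5 and 0.726, 0.783, 1.92 and 2.09 CPM on day 3, and it rose by 7.66 on the log2 scale (SE 0.25, adjusted p = 3.9e-07). *Ptgds*, prostaglandin D synthase, had 49.1, 45.8 and 22.9 CPM on day 5 and 0.132, 0.0653, 0.0582 and 0.0419 CPM on day 3, and it rose by 8.78 on the log2 scale (SE 0.17, adjusted p = 7.1e-08). None of the 10 overlapped between the days, which the rule required. The 10 lowest included a 2nd gene annotated as Zc3h11a, *Btla*, *Lefty1*, *Platr10*, *Foxd3*, *Pllp*, *Bcl11a*, *Trim67* and *Mixl1*. *Bcl11a*, a zinc finger repressor, had 0.399, 0.474 and 0.0936 CPM on day 5 and 20.6, 18.3, 19.2 and 18.7 CPM on day 3, and it fell by 5.76 on the log2 scale (SE 0.26, adjusted p = 1.3e-06). *Platr10*, a noncoding RNA of pluripotent cells, had 0.532, 0.889 and 0.187 CPM on day 5 and 41, 44.2, 37.7 and 38.3 CPM on day 3. The Zc3h11a copy shares its symbol with another gene, its reads may be split between them, and it had 0 counts on day 5, at least 296-fold lower than on day 3 by a floor of 3 counts over the day 5 group.

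The gene sets that the study drew from an embryo atlas were counted in the same way. Of 79 tested Mesoderm genes 59 rose and 1 fell, of 115 extraembryonic (ExE) mesoderm genes 77 rose and 1 fell, and of 125 Endoderm genes 66 rose and none fell. Of 38 Primitive Streak genes 27 fell and 1 rose, and of 73 Epiblast genes 31 fell and 2 rose. The medians were 2.14, 1.91, 1.03, -1.89 and -0.83 in that order. Ectoderm genes, with 14 higher and 6 lower of 48, had a median of 0.28, and Visceral endoderm genes, with 82 higher and 51 lower of 464, had 0.10. The primordial germ cell (PGC) set, with 30 higher and 15 lower of 87, had a median of 0.35, whereas all tested genes of the germline list above fell. The Angioblast set, with 19 higher and 18 lower of 107, had -0.04, the ExE ectoderm set, with 39 and 73 of 268, had -0.30, the Non-neural ectoderm set, with 24 and 8 of 54, had 0.82, and the NMP set, with 32 and 17 of 90, had 0.44.

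Whether the KO change differed from that of WT cells over the same days was tested in the 14 KO and WT libraries of days 3 and 5. WT changes and differences come from a fit of these libraries, and KO changes from the fit of the 7 KO libraries. The values therefore need not subtract exactly. In WT cells 8.08 percent of 18080 tested genes rose and 8.17 percent fell on day 5, and the change differed between KO and WT cells in 1841 genes, or 10.2 percent, with KO minus WT higher in 1004 (5.55 percent) and lower in 837 (4.63 percent). Of 2145 genes that rose in KO cells and were tested in both fits, 876 also rose in WT cells, 33 fell, and 707 had a change that was higher in KO than in WT cells by the test of the difference. Of 1910 that fell in KO cells 958 also fell in WT cells, 29 rose, and 569 had a lower change in KO cells. *Fgf5* changed by -2.89 in KO and -2.59 in WT cells on the log2 scale, a difference of -0.29 (SE 0.24, adjusted p = 0.42), and *Dnmt3b* by -3.20 and -3.03, a difference of -0.19 (SE 0.07, adjusted p = 0.078). Neither difference passed.

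Differences were found in pluripotency, cardiac and endodermal genes. Of 13 core and naive pluripotency genes 4 had a negative difference that passed and none a positive one, with a median difference of -0.12. *Nanog* changed by -4.41 in KO and -0.21 in WT cells, a difference of -4.05 (SE 0.47, adjusted p = 5.6e-05). The changes started from unequal levels, since on day 3 *Nanog* had 214, 204, 193 and 158 CPM in KO cells and 32.3, 26.9, 76.3 and 56.9 CPM in WT cells. On day 5 it had 10.3, 12.6 and 5.15 CPM in KO cells and 33.3, 33.1 and 51.6 CPM in WT cells. *Pou5f1* had a difference of -2.16 (SE 0.23, adjusted p = 2.9e-05). Differences that passed were positive for 10 of 15 cardiac transcription factor genes, 13 of 18 contractile genes and 14 of 18 endoderm genes, and negative for none, none and 2 genes of these lists. *Isl1* had 0.227, 0.231 and 1.68 CPM in WT cells on day 5 and a difference of 6.12 (SE 0.84, adjusted p = 0.00021), *Gata4* 2.65, 3.39 and 12.5 CPM and 4.07 (SE 0.72, adjusted p = 0.0013), *Myl7* 0.302, 0.462 and 1.28 CPM and 5.27 (SE 0.76, adjusted p = 0.0003), and *Foxa1* 0.454, 0.771 and 5.38 CPM and 4.14 (SE 0.80, adjusted p = 0.0024). Without WT7 of experiment 2 on day 5 these differences were 7.69 (adjusted p = 1.7e-05) for *Isl1*, 4.59 (adjusted p = 0.0013) for *Gata4*, 6.26 (adjusted p = 3.7e-05) for *Myl7* and 5.76 (adjusted p = 3.2e-06) for *Foxa1*. The differences of *Nkx2-5*, at 2.86 (adjusted p = 0.32), *Hand2*, at 6.32 (adjusted p = 0.12), and *Mef2c*, at 2.93 (adjusted p = 0.064), did not pass. *Mef2c* also rose in WT cells, by 3.31. Without the same WT7 library *Hand2* and *Mef2c* passed, at 12.16 (adjusted p = 0.0029) and 4.33 (adjusted p = 0.00065), and *Nkx2-5* did not. For paraxial genes 10 of 16 differences were positive and passed, with *Pdgfra* at 3.23 (SE 0.38, adjusted p = 7e-05), but that of *Foxc2*, at 5.20 (SE 1.96, adjusted p = 0.073), did not pass, and passed without WT7 of experiment 2 on day 5, at 6.82 (adjusted p = 0.0015). *Igf2* differed by 2.60 (SE 0.22, adjusted p = 6.6e-06), *Grb10* by 2.26 (SE 0.45, adjusted p = 0.0027) and *Slc2a1* by 1.86 (SE 0.13, adjusted p = 1.3e-06), whereas *Slc2a3*, at -0.11 (SE 0.15, adjusted p = 0.65), did not pass. On the neural side *Sox1* differed by -2.19 (SE 0.55, adjusted p = 0.01), which was -1.003 within experiment 1 and -1.803 without KO15 of experiment 2 on day 3, where it did not pass, and the midbrain gene *En1* by -4.30 (SE 0.94, adjusted p = 0.005), with 1.46, 1.48 and 1.4 CPM in KO cells and 21.8, 31.6 and 68.8 CPM in WT cells on day 5.

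Streak genes differed in the other direction, with 9 negative and no positive differences that passed among 13. Of 18 Wnt ligand genes 9 had a negative and 1 a positive difference, of 10 Wnt target and feedback genes 4 and 2, and of 9 Wnt antagonist genes 1 and 3. Several streak genes lost the call without 1 WT library. *T* changed by -0.82 in KO and 3.36 in WT cells, a difference of -4.15 (SE 0.79, adjusted p = 0.002), with 87.1, 111 and 139.6 CPM in KO cells and 8.39, 9.55 and 79.6 CPM in WT cells on day 5. On day 3 *T* had 219.5, 196, 192 and 211 CPM in KO cells and 4.28, 1.79, 4.26 and 2.09 CPM in WT cells. WT7 of experiment 2 held the highest of the WT values of day 5. Without that library the difference of *T* was -2.53 (adjusted p = 0.00022), while those of *Eomes* at -1.21 (adjusted p = 0.24), *Mixl1* at -2.08 (adjusted p = 0.49) and *Fgf8* at -1.52 (adjusted p = 0.21) did not pass. *Foxa2*, with 3.55, 3.39 and 21.5 CPM in WT cells on day 5, differed by -2.02 (SE 0.59, adjusted p = 0.024) with the library and -0.73 (adjusted p = 0.16) without it. In a fit with a replicate block for the line, the differences of *Eomes* and *Foxa2* did not pass either, at -2.08 (adjusted p = 0.07) and -1.82 (adjusted p = 0.069). *Axin2*, at 80.2, 84.3 and 86.8 CPM in WT cells on day 5 and 15, 12.1, 17 and 13.4 CPM in WT cells on day 3, differed by -3.33 (SE 0.36, adjusted p = 3.4e-05), and by -3.11 (adjusted p = 4e-05) without it. Of the 128 named genes with a difference that passed, 16 no longer did without WT7 of experiment 2.

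**Figure D4:**
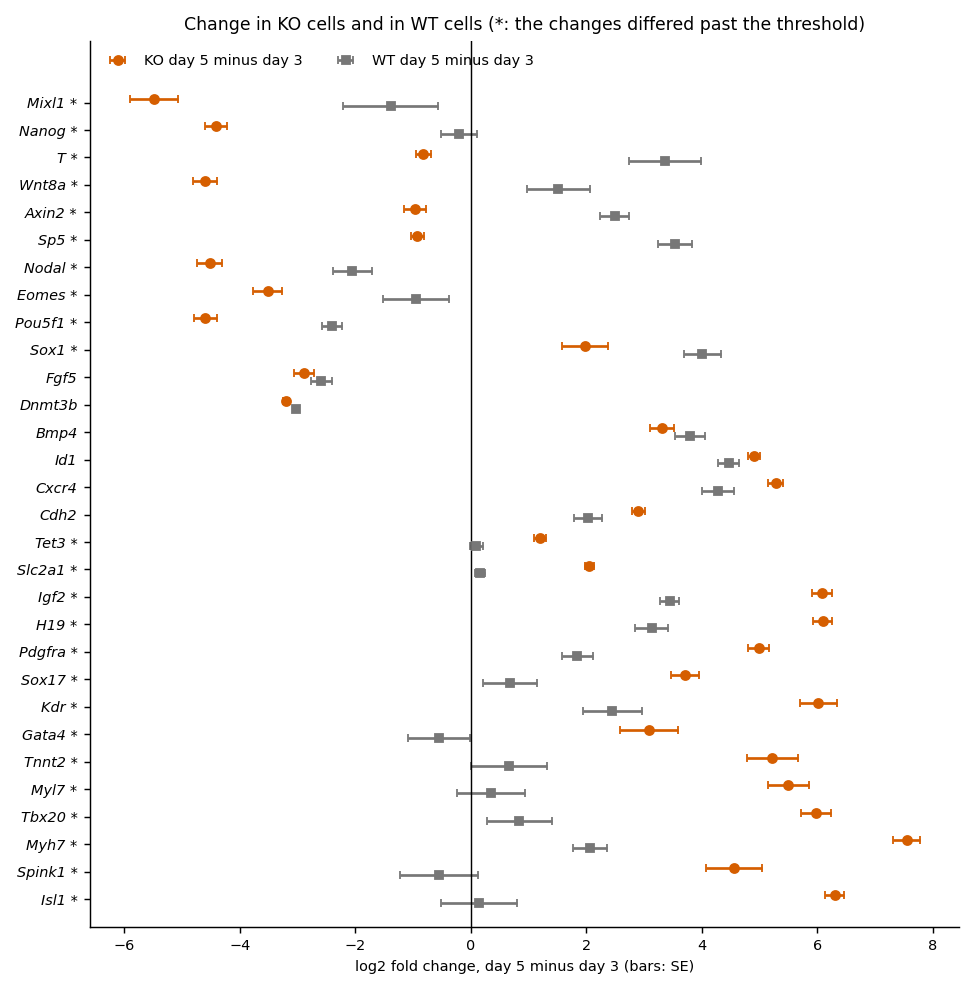
Log2 fold change of day 5 against day 3 with its SE for 30 genes, in KO cells from the 7 KO libraries and in WT cells from the 14 KO and WT libraries, with an asterisk where the difference of the changes passed. *Isl1*, *Gata4* and *Myl7* changed by 6.30, 3.09 and 5.49 in KO cells and by 0.14, -0.56 and 0.35 in WT cells, and the values of *Fgf5* and of *Dnmt3b* lie close together.

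The experiments were last compared with each other. In experiment 1, with KO1 and KO15 on both days, 2306 genes rose and 1947 fell (13.5 percent higher and 11.4 percent lower). In experiment 2, with KO1 alone on day 5, 2104 rose and 2183 fell (11.5 percent higher and 11.9 percent lower). KO1 on day 5 was read in both experiments and KO15 on day 5 in experiment 1 only. The cardiac factor list summed to 277 CPM in that library and to 599 and 482 CPM in those of experiment 1, and the paraxial list to 829 CPM and to 479 and 481 CPM. *Ddr2*, a collagen receptor of mesenchyme, had 7.44, 9.71 and 40.6 CPM on day 5, and *Cdh11*, a mesenchymal cadherin, had 63.2, 76.6 and 203 CPM. These 2 genes were highest in experiment 2, whereas *Gata4*, *Hand1* and *Tbx20* were lowest there. The cardiac factor count was 14 higher of 15 in experiment 1 and 12 of 15 in experiment 2, and the paraxial count 15 of 16 in each.

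**Figure D5:**
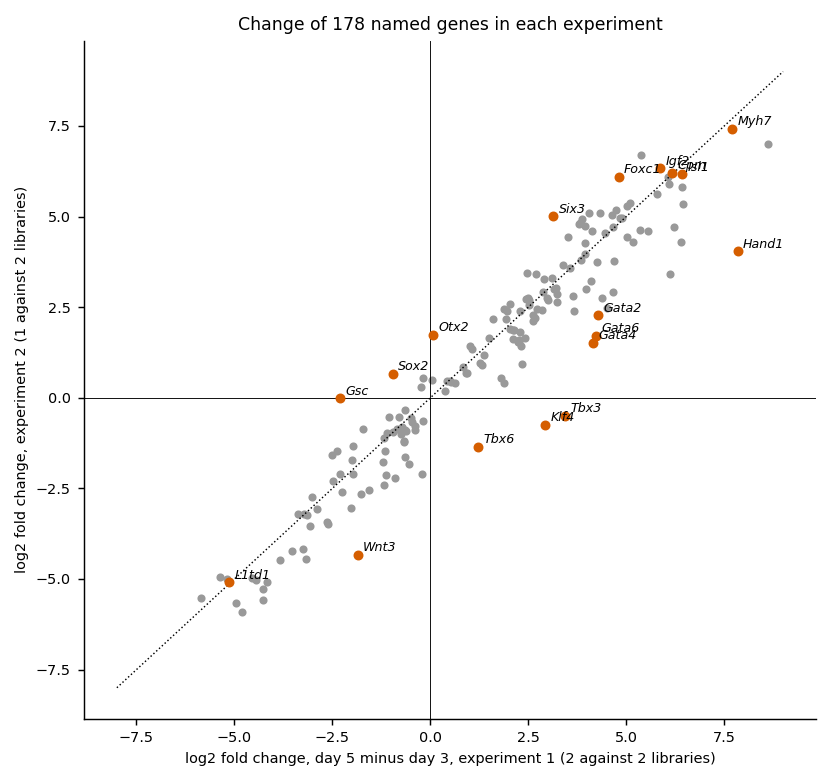
Log2 fold change of day 5 against day 3 within experiment 2 (vertical) against that within experiment 1 (horizontal) for 178 named genes with over 30 counts on each day in KO cells, with the line of equal values. Most points lie in the same quadrant in both experiments, and *Klf4*, *Tbx3* and *Tbx6* are higher on day 5 in experiment 1 and lower in experiment 2.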

How the data were processed

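Poly(A) RNA was read as stranded single-end libraries of 50 bases. Per the labels and methods, the authors used Trim Galore 0.6.4 for trimming and Salmon 0.14.1 for quantification on GENCODE M23 transcripts (mm10), and summed transcripts per gene with tximport. The deposited expected counts, of which 73.8 percent were whole, are unscaled estimates for 54281 genes, and the deposited TPM values, corrected by the authors for transcript length, were used in 1 alternative only. Salmon divides reads among similar transcripts, so close copies are uncertain. Of the symbols 100 stood for more than 1 gene, and positions came from GENCODE M21.

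Expected counts were rounded. Genes were kept with the edgeR filter (minimum count 10, minimum total 15), scaled by TMM and tested with the quasi-likelihood test of edgeR 4.0.16 in R 4.3.3, with group means and a term for experiment, over the 7 KO libraries for the change and over 14 KO and WT libraries for the difference of the changes. CPM values were scaled by TMM over 30 KO and WT libraries. In simulated counts 72.4 percent of log2 changes of 1.5 and 92.6 percent of log2 changes of 3 were recovered for KO day 5 against day 3, with 4 false calls among 16758 genes. For the difference of the changes 51.0 and 86.6 percent were recovered, with 12 false calls among 17607 genes. The simulation had no experiment effect, an assumed spread between libraries and far fewer changed genes than passed here, so recovery in the real libraries may differ. Deposited expected counts of the same cell line pair the libraries. KO1 minus KO15 deviations correlated at 0.06 between days 5 and 3 of experiment 1 and at 0.06 between experiments on day 3, and the cell line as a replicate block was an alternative, as were the culture, DESeq2 1.42.0, limma 3.58.1 on log2(TPM + 1), other filters, scalings and sample sets, and leaving out each library.

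Members and lists were chosen with earlier results of these data known. The rule named 43 marker genes, the 10 highest and 10 lowest changes without overlap at 5 CPM or more on the higher day, up to 4 members of each list by p, and the 5 highest and 5 lowest differences. Predicted genes were left out of the highest and lowest. *Esrrb*, *Klf4*, *Mesp1*, *Gsc*, *Krt8*, *Myh6*, *Bmp2*, *Nog*, *Sox3*, *Grb10*, *Mki67* and other further members were named after their values were seen. Of the genes the rule named, a few are not reported here. KO and WT libraries of other days gave CPM values only, and they and the other 6 libraries of the series entered the fit in 1 alternative.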

Additional observations from a re-analysis of the deposited data

Results flagged for a closer look

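Within the 4 day 3 libraries, 4 genes had 1 library set apart from the other 3 by more than Dixon's 95 percent limit, which chance exceeds in about 1 in 20 groups. They were *Foxa2* at 57.8 CPM, *Fam177a* at 5.08 CPM and *Cfc1* at 1.19 CPM in KO1 of experiment 1, and *Amn* at 2.85 CPM in KO15 of experiment 2.

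The change between the days differed between KO and WT cells in 128 of the named genes by the interaction term of the edgeR fit. The 36 of them that are marker genes or among the 5 highest and 5 lowest differences are given here, values being KO change minus WT change on the log2 scale. Among streak genes the difference was -4.15 for *T*, -2.31 for *Eomes* and -4.06 for *Mixl1*. Pluripotency genes had lower changes in KO cells, at -2.16 for *Pou5f1*, -4.05 for *Nanog* and -1.53 for *Utf1*. *Nodal*, at -2.35, the Wnt feedback gene *Axin2*, at -3.33, *Sox1*, at -2.19, and *Foxa2*, at -2.02, were lower too. *Nodal* started from 154, 122, 90 and 81.4 CPM in KO cells on day 3 and from 14, 13.6, 20.6 and 14.1 CPM in WT cells. Cardiac factors had higher changes in KO cells, at 4.07 for *Gata4*, 3.90 for *Gata6*, 5.67 for *Hand1*, 6.12 for *Isl1*, 5.28 for *Tbx20* and 6.37 for *Gata5*. Contractile genes had higher changes too, at 5.27 for *Myl7*, 4.62 for *Tnnt2*, 3.49 for *Actc1* and 6.18 for *Ttn*. *Ttn* fell by 3.69 in WT cells and rose by 2.51 in KO cells. The endoderm genes *Sox17* and *Spink1* had 3.32 and 5.75. Mesoderm, blood and vessel genes had 3.23 for *Pdgfra*, 1.38 for *Twist1*, 3.55 for *Kdr*, 1.92 for *Cdh5* and 4.15 for *Tal1*. *Cdh1* had 1.05 and *Tet3* 1.09.

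The remaining genes stood at the ends of the list. *Ptgfr*, a prostaglandin receptor with 3 counts in KO cells on day 3, had 6.55, and *Foxd4*, a forkhead gene, 5.95. At the other end stood *Fam177a* at -7.47, and the brain patterning genes *Pax5* at -6.87, *Wnt8b* at -6.57, *Fezf2* at -6.57 and *En2* at -6.44. These brain genes had at most 0.332 CPM in any KO library of day 5, against 4.84, 4.24 and 42.8 CPM for *Pax5*, 5.52, 4.93 and 13.5 CPM for *Wnt8b*, 10.1, 11.9 and 5.38 CPM for *Fezf2* and 0.831, 1.46 and 19 CPM for *En2* in WT cells on day 5. *Fam177a* was at 11.2, 4.44 and 0 CPM in KO cells on day 5 and 1.89, 5.39 and 0 CPM in WT cells on day 5. In fits that left out 1 library, the difference of *Fam177a* did not pass in 9 of 14 (adjusted p up to 0.11), that of *Cdh5* in 11 (up to 0.12) and that of *Eomes* in 8 (up to 0.24). *Fam177a* did not pass with all 36 libraries (adjusted p = 0.11) or without the experiment term (adjusted p = 0.15) either.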

How the results depend on the processing

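Among values of the named genes recomputed under alternatives for KO day 5 against day 3, 4114 kept their direction and side of the threshold, 61 no longer passed, 25 newly passed and 16 changed sign, and for the difference from WT the counts were 1130, 64, 38 and 8. The cell line as a replicate block gave 3978 genes in place of 4067 and 1670 differences in place of 1841, and the culture as a block gave 3751. Among the named genes the line block ended the call of *Gsc*, at -1.31, and the culture block those of *Gsc* and *Pax6*, at -1.43 and 1.28. The line block also ended the differences of *Eomes*, *Foxa2* and *Cdh5*, at -2.08, -1.82 and 1.84. No other call changed among the values recomputed with these blocks. Except without WT7 of experiment 2 on day 5, differences were compared gene by gene only for the marker genes and the 5 highest and 5 lowest differences. The culture block was not fitted to the differences. Leaving out each library gave 3836 to 4376 genes, 2023 to 2352 higher and 1766 to 2024 lower, and 1637 to 2143 differences, 903 to 1229 higher and 727 to 914 lower. With limma on log2(TPM + 1) 1994 genes passed, 1054 higher and 940 lower, and 841 differences, 538 higher and 303 lower. With a limit of 1.5 on the log2 scale 2522 genes passed, 1298 higher and 1224 lower, and 1159 differences, 639 higher and 520 lower. The cause of the lower limma counts was not tested.

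Signs changed for genes with small or unequal changes. Within experiment 2 alone the log2 values were 0.67 for *Sox2*, 0.30 for *Tet1*, -1.36 for *Tbx6*, -0.75 for *Klf4*, -0.50 for *Tbx3* and 0.49 for *Dcn*, and the differences 0.040 for *Sox2*, -0.50 for *Meox1* and -0.27 for *Cdh2*. Within experiment 1 alone *Foxa2* had -0.20, and the difference of *Fgf5* was 0.23. Without the experiment 2 library of day 5 *Foxa2* had -0.19. *Tet1* had 0.023 with the cell line block, 0.08 without KO15 of day 3 and 0.11 without KO1 of day 5, both of experiment 1, and the leave-one-out range was -0.24 to 0.11. *Dhcr7* had -0.10 with limma, *Tbx6* -0.077 without KO1 of day 3 and *Dcn* 0.011 without KO15 of day 5, both of experiment 1, within leave-one-out ranges of -0.077 to 1.24 and -1.29 to 0.011. *Cubn* had -0.59 with libraries summed per line and day and -0.13 without the experiment term. The difference of *Meox1* was -0.053 without that term, -0.53 without KO15 of day 5, -0.52 without WT34 of day 3 in experiment 2 and -0.04 without WT7 of day 5 in experiment 1, and reached 1.63 without WT7 of day 5 in experiment 2. Where a group kept 1 library, its spread was taken from the other groups. Depth and the 3 libraries of day 5 limit precision.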
